A study of Gallus gallus with 12 samples.

Results

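Short, well-expressed genes of the hen oviduct are described here across 2 segments and 2 ages. They are the 120 numbered genes that are at most 600 bases long in the deposited gene table and whose mean reached at least 500 scaled counts in at least 1 of the 4 groups. They were taken from 18241 numbered genes (19820 with the loci that carry a new-gene label), of which 928 were at most 600 bases long. The 8108 longer numbered genes that met the same level rule served as the comparison set. The level in the highest group chose both sets, so it is given as a description only, and a gene that reached the level in a single group had to differ between groups.

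The libraries came from the magnum and the uterus of Lohmann layers, a commercial egg-laying strain of chicken (Gallus gallus), aged 120 or 300 days. There were 3 libraries in each of the 4 groups, and no treatment was named. Per the series title these ages fall before and during lay, and the question it states concerns the work of each segment and the protection of oviduct and egg. A scaled count is a read count that the authors had already brought to a common level between libraries, and its depth in reads is unknown. Column totals were 14499548 to 25071610 for the younger magnum, 44995822 to 77432154 for the older magnum and 14543795 to 17274374 for the uterus. Replicate 1 of the magnum at 120 days had the highest sum of its group. At that age libraries of the 2 segments with the same number deviated together, and more weakly so at 300 days. Nothing in the labels says that libraries came from separate hens, so the spread between them may be partly technical.

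The magnum secretes the egg white proteins as the yolk passes, and the uterus, or shell gland, then adds fluid and lays down the calcified shell. Both segments mature under steroid hormones before the first egg. In vertebrates, short transcripts commonly encode ribosomal proteins, small subunits of the respiratory chain, histones, small calcium-binding proteins and small secreted peptides, the last including antimicrobial ones. No gene symbols stand in the deposited table, and the RefSeq gene table for chicken held 0 of its 19820 identifiers, so none of these classes is assigned to any gene below and no sequence or position is given. For the same reason 0 of 28 marker symbols of oviduct cell types was found, and the labelled segments were not checked against markers.

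The 120 short genes were 320 to 600 bases long, with a median of 496, against a median of 4210 bases for the longer set. Their highest group means ran from 507 to 26580 scaled counts with a median of 1540, close to the 1420 of the longer set. At the edge of the length rule, 10 genes of 594 to 600 bases lay inside, with highest means of 698 to 10700, and genes of 601 and 602 bases lay outside, with 2930 and 7320. At the edge of the level rule, 3 short genes at 507 to 514 lay inside and 4 at 480 to 496 outside. By level, 45 had a highest mean of 500 to 1000, 33 of 1000 to 3000 and 42 of 3000 and above. The highest mean fell in the uterus at 300 days for 42 of the 120, in the uterus at 120 days for 35, in the magnum at 300 days for 24 and in the magnum at 120 days for 19. In the longer set the magnum at 300 days was the most frequent, with 42.9% of genes, against 20.0% of the short ones.

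**Figure D1:**
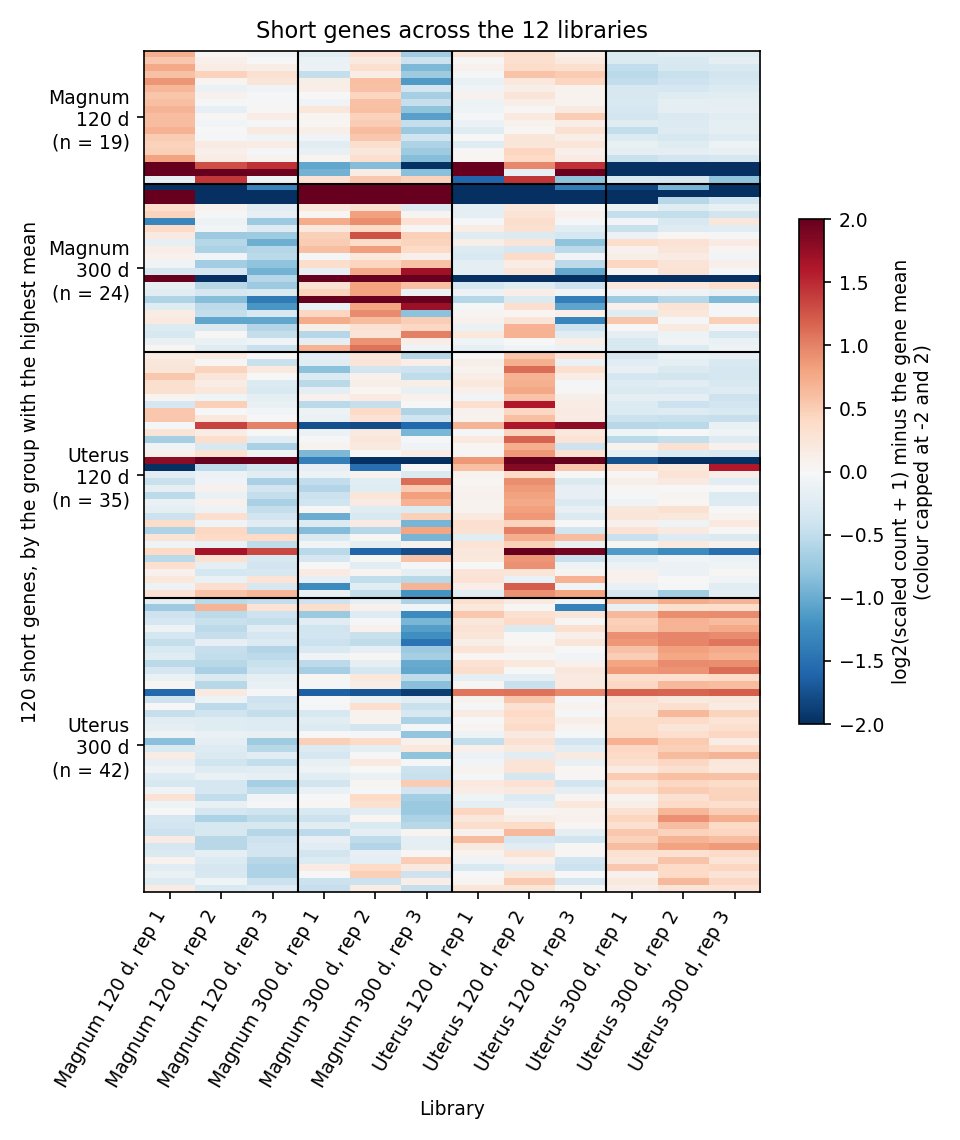
Each row is 1 of the 120 short genes and each column 1 library, with colour showing log2(scaled count + 1) minus the gene's mean over the 12 libraries, capped at -2 and 2. Rows are grouped by the group with the highest mean (19, 24, 35 and 42 genes from top to bottom), which the choice of rows fixes, and a few dark rows change far more than the rest.

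Together the short genes summed to 341394, 268696 and 243769 scaled counts in replicates 1 to 3 of the magnum at 120 days and to 316645, 428132 and 264759 at 300 days. In the uterus the sums were 274887, 351286 and 286569 at 120 days and 244198, 256059 and 257473 at 300 days. These sums overlapped between the ages in the magnum, and in the uterus all 3 libraries at 300 days lay below those at 120 days. As a share of the column, the short genes made up 1.36% to 1.85% of the magnum at 120 days, 0.509% to 0.588% at 300 days, 1.88% to 2.27% of the uterus at 120 days and 1.48% to 1.56% at 300 days. The low magnum share at 300 days went with larger column totals. In bulk tissue, fewer cells of a type and less RNA per cell cannot be told apart.

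With age, 17 short genes rose and 9 fell in the magnum. Calls were made with limma on log2(scaled count + 1), at a Benjamini-Hochberg adjusted p below 0.05 over all 14883 genes tested. Of all genes tested, 12.1% were called higher and 13.6% lower, so the 17 (14.2% of 120) lay near that background and the 9 (7.5%) below it. In the longer set 18.2% were higher and 11.2% lower. All 120 short genes passed the filter on low values. At least 2-fold changes were found for 12 of the rises and 7 of the falls. Over all 14883 genes tested, 1013 rises and 1725 falls reached 2-fold. The median log2 change was 0.02 for the short genes, 0.14 for the longer set and -0.03 for all genes tested.

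The most abundant short gene that rose was gene22538, 585 bases long. It stood at 54, 80 and 162 scaled counts in magnum at 120 days and at 26697, 36592 and 16450 at 300 days, while the uterus held 63, 85 and 152 at 120 days and 114, 211 and 80 at 300 days. Only the 3 magnum libraries at 300 days were high, and the other 9 lay together. The magnum age change was 98.7 ± 56.4 to 26579.7 ± 10072 (SD, n = 3 each), or 8.13 ± 0.49 on the log2 scale (SE, limma adjusted p = 8.13e-06). Its rise was called under all 22 alternatives that were run. The gene entered the set through the magnum at 300 days alone. Its choice required a higher mean there, so the test and its alternatives give no separate support for the rise.

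A second gene, gene7197 (366 bases), behaved differently at 120 days and was added after its values were seen. Its magnum values were 727, 3 and 8 at 120 days and 16897, 40390 and 13781 at 300 days, and its uterus values were 4, 1 and 1, then 0, 7 and 8. Replicate 1 of the magnum at 120 days lay far above its group, though well below every 300-day library. The log2 change was 9.47 ± 1.57 (SE, limma adjusted p = 0.00187). It was 11.78 without replicate 1 at 120 days, 8.03 without replicate 2, 8.61 without replicate 3 and 8.57 with a pseudocount of 10. This gene, too, entered the set through the magnum at 300 days alone, so the test gives no separate support for its rise.

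A 407-base gene, whose identifier number is 2 above that of gene7197, showed the same split at 120 days. It held 11615, 10 and 34 scaled counts in magnum at 120 days and 21671, 25329 and 21654 at 300 days. Its uterus values were 3, 11 and 4, then 6, 125 and 139. A log2 change of 7.11 ± 2.03 passed in the magnum (limma adjusted p = 0.0253). The call was lost without replicate 2 or 3 at 120 days (adjusted p = 0.0961 and 0.106), without replicate 1, 2 or 3 at 300 days (0.0573, 0.0701 and 0.0567) and in a fit of the magnum groups alone (0.0782). The change was 10.18 without replicate 1 at 120 days, 5.16 without replicate 2 and 6.0 without replicate 3.

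A 460-base gene was listed at 0 in all 6 uterus libraries. In the magnum it stood at 129, 0 and 6 at 120 days and at 902, 2760 and 706 at 300 days, again with replicate 1 highest at the younger age. By contrast, a 587-base gene held 123, 104 and 70 in the magnum at 120 days and 770, 1322 and 1034 at 300 days, with 126, 153 and 71 and then 113, 126 and 101 in the uterus. Its magnum rise was 3.39 ± 0.34 on the log2 scale (SE, limma adjusted p = 0.000224). Replicate 1 therefore held raised values of the 366-, 407- and 460-base genes at 120 days, but not of gene22538, and its 123 for the 587-base gene was close to the other libraries of that age. Both the 460- and the 587-base gene entered the set through the magnum at 300 days alone. Their choice required a higher mean there, and the test gives no separate support for it.

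The remaining rises of at least 2-fold were smaller. The most abundant of these, a 375-base gene, went from 1807, 4191 and 2714 to 7501, 8504 and 5458, a log2 change of 1.36 ± 0.29 (limma adjusted p = 0.00646). This call was lost with the FPKM values (adjusted p = 0.0591), and the change was -0.42 after scaling each library to its total, a step that moved the median of all genes by -1.76. On that scale the rise was 6.35 for gene22538 and 1.61 for the 587-base gene. The uterus held the 375-base gene at 4426, 5716 and 4416, then 4334, 3647 and 5278, and the ages overlapped.

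**Figure D2:**
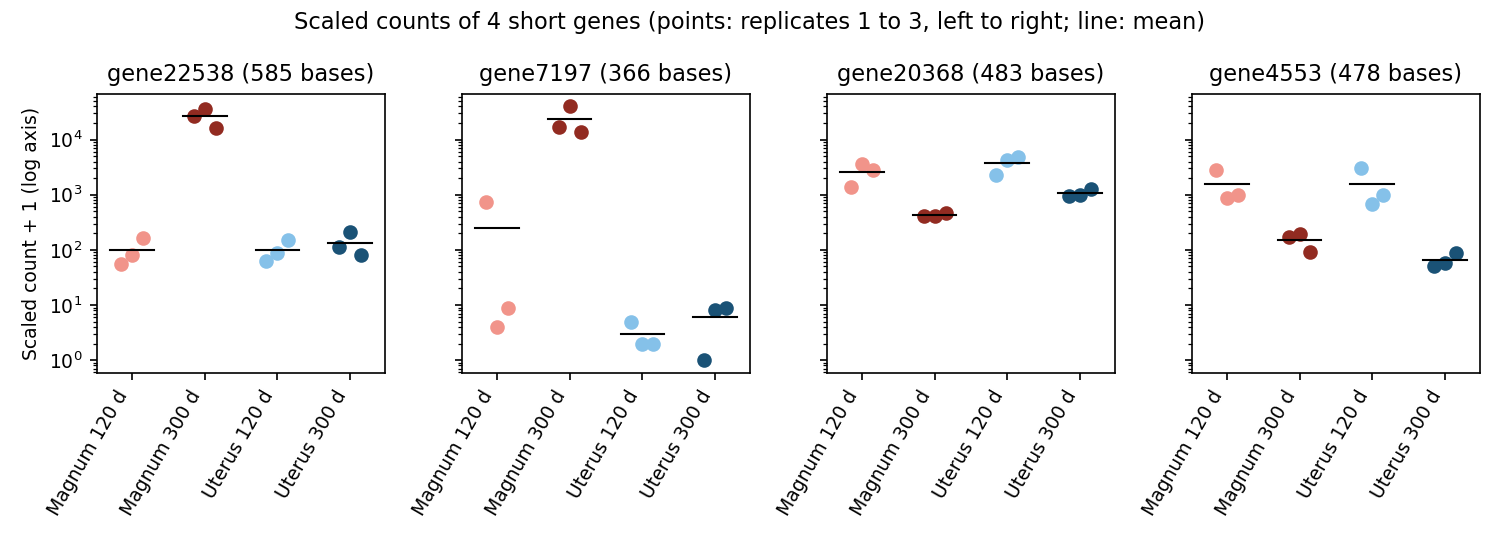
Scaled count + 1 on a log axis for 4 short genes, with 1 point per library (replicates 1 to 3 from left to right within a group) and a line at the mean of each group. The magnum points at 300 days of gene22538 and gene7197 lie at 13781 and above, and the points of gene20368 and gene4553 at 300 days lie below those at 120 days in both segments.

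The short genes that fell most did so in both segments. The most abundant, gene20368 (483 bases), stood at 1377, 3592 and 2805 scaled counts in magnum at 120 days and at 417, 408 and 474 at 300 days. In the uterus it stood at 2258, 4347 and 4869, then at 958, 970 and 1283. The ages did not overlap in either segment, and replicate 1 was the lowest library at 120 days in both. The log2 changes were -2.47 ± 0.35 in the magnum (limma adjusted p = 0.000864) and -1.77 ± 0.35 in the uterus (adjusted p = 0.00784), and both were called under all 22 alternatives.

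The other fall named by rule was gene4553, 478 bases long. Its values were 2869, 867 and 975 in the magnum at 120 days and 172, 194 and 89 at 300 days. The uterus held 3003, 689 and 976 at 120 days and 49, 58 and 87 at 300 days. Here replicate 1 was the highest library at 120 days in both segments, the reverse of gene20368. The log2 changes were -3.22 ± 0.57 in the magnum (limma adjusted p = 0.00276) and -4.31 ± 0.57 in the uterus (adjusted p = 0.00114), the latter -3.69 without replicate 1 of the uterus at 120 days.

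A 550-base gene fell from 957, 1535 and 1230 to 106, 64 and 40 scaled counts in the magnum, and from 504, 2224 and 1486 to 81, 64 and 42 in the uterus. Its log2 changes were -4.21 ± 0.51 (limma adjusted p = 0.000397) and -4.28 ± 0.51 (adjusted p = 0.000662), the latter -4.89 without replicate 1 of the uterus at 120 days. A 581-base gene went from 1516, 729 and 665 to 88, 189 and 95 in the magnum and from 1254, 152 and 768 to 18, 25 and 6 in the uterus. Its uterus change was -5.13 ± 0.73 (limma adjusted p = 0.00152), -4.50 without replicate 1 at 120 days, -6.02 without replicate 2, -4.47 with the FPKM values and -4.44 with a pseudocount of 10.

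A 498-base gene held 247, 598 and 476 scaled counts in magnum at 120 days and 129, 61 and 54 at 300 days, with 220, 923 and 713 and then 85, 77 and 65 in the uterus. The uterus change was -2.79 ± 0.53 (limma adjusted p = 0.00667), and -3.41 without replicate 1 at 120 days. All 5 of these genes were called lower in both segments, and they were all the short genes called lower by at least 2-fold in the uterus. The 478-, 550- and 581-base genes entered the set through the 120-day groups alone, and the 498-base gene through the uterus at 120 days alone. Their choice required a higher mean at that age, and the tests give no separate support for their falls. Replicate 1 at 120 days was the lowest library of both segments for 3 of them (483, 550 with the magnum at 957, and 498 bases), whereas it was the highest of both segments for the 478- and 581-base genes.

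The counts of magnum calls depended on single libraries. Without replicate 2 of the magnum at 120 days 10 short genes were higher and 5 lower, without replicate 3 the counts were 9 and 5, and without replicate 2 at 300 days 10 were higher. Without both 120-day libraries numbered 1, a setting chosen once the values were known, the rises and falls each stayed within 1.5 times the counts given. For these refits the shares called over all genes tested are not given, so the counts are not read as particular to the short genes.

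In the uterus, 9 short genes rose and 8 fell with age by the same limma test. The 7.5% and 6.67% of 120 lay near the background of 6.54% called higher and 7.21% called lower among all genes tested, and the longer set had 9.46% and 6.87%. None of the 9 rises reached 2-fold (0 genes), and 5 of the 8 falls did. Over all 14883 genes tested, 596 rises and 946 falls did. The median log2 change was -0.07 for the short genes, 0.11 for the longer set and 0.02 for all genes tested.

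The uterus rises were modest and the libraries lay close together at 300 days. A 439-base gene is an example, with 1668, 1413 and 1501 scaled counts in the uterus at 120 days and 2659, 2776 and 2713 at 300 days. The ages did not overlap, and its log2 change was 0.83 ± 0.20 (SE, limma adjusted p = 0.0217), a call lost without replicate 2 or 3 at 120 days (adjusted p = 0.0739 and 0.0631) and without replicate 1, 2 or 3 at 300 days (0.0639, 0.0730 and 0.0644), and with the FPKM values (0.0686). The call was also lost after scaling each library to its total, with a change of 0.66 (limma adjusted p = 0.127). That step moved the uterus median of all genes by -0.17. In the magnum the same gene held 1103, 1021 and 1115, then 1074, 1037 and 597. A 378-base gene was the single short gene called higher with age in both segments. Its values were 340, 312 and 257, then 442, 522 and 452 in the magnum, and 320, 351 and 295, then 576, 515 and 535 in the uterus. It entered the set through the uterus at 300 days alone, so its choice required a higher mean there.

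The counts of uterus calls also depended on single libraries. There were 0 rises without any 1 of the 3 uterus libraries at 300 days, 1 without replicate 2 or without replicate 3 of the uterus at 120 days, and 5 without replicate 3 of the magnum at 120 days, which enters through the shared estimate of the spread. The falls numbered 5 without replicate 3 of the magnum at 120 days, replicate 1 of the magnum at 300 days, replicate 2 of the uterus at 120 days or any 1 of the uterus libraries at 300 days. They numbered 14 without replicate 1 of the uterus at 120 days. The shares called over all genes tested in these refits are not given here, so the counts are not read as a trait of the short genes. With the FPKM values 2 short genes rose, where 1004 of all 14883 genes tested did, a larger share. No short gene was called in opposite directions in the 2 segments (0 of 120), 6 were called lower (5.0%) and 1 higher (0.833%) in both, and 84 (70.0%) were called in neither age comparison. Over all genes tested these shares were 0.349% in opposite directions, 4.52% lower in both, 2.38% higher in both and 67.8% in neither, and 3.84% of the longer set were higher in both.

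**Figure D3:**
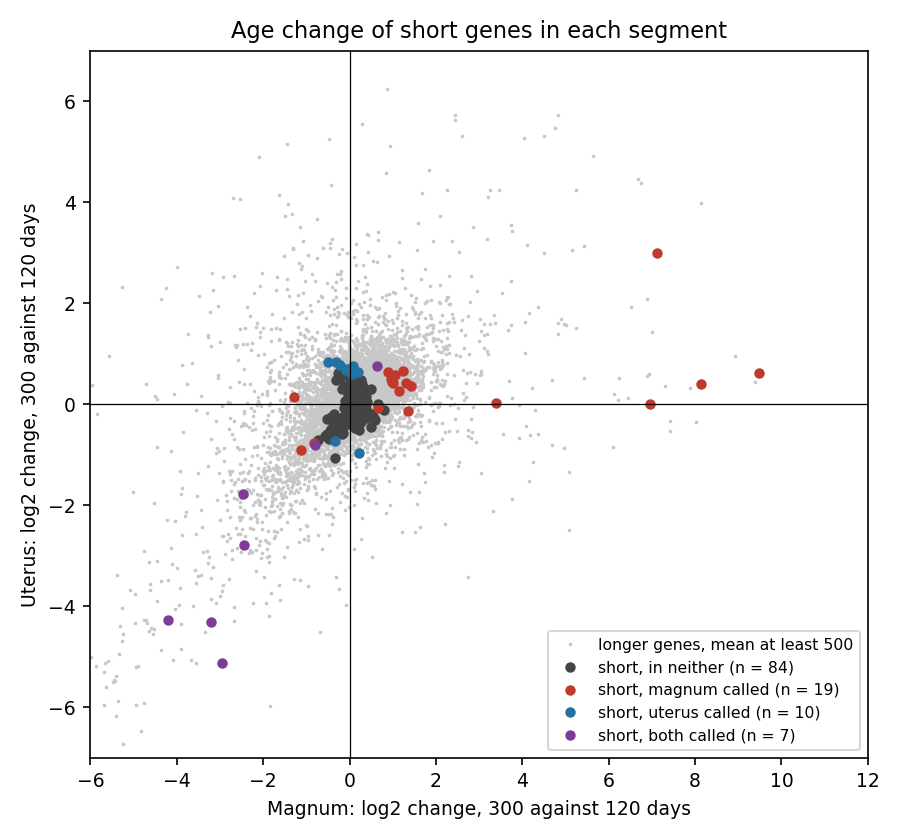
Log2 change from 120 to 300 days in the magnum (horizontal) and in the uterus (vertical), with the 120 short genes as large points coloured by where they were called and the longer genes of the same level as small grey points, of which 8 lie outside the axes. The 5 short genes that fell at least 2-fold in both segments sit at the lower left, and the large magnum rises sit at the right.

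By an interaction term in that limma fit, 2 short genes changed with age to a different extent in each segment. For both, the change was lower in the uterus, and 0 had a higher change there. These 2 are 1.67% of the short genes, where 2.61% of all genes tested were called, 1.01% with a lower and 1.61% with a higher change. At an unadjusted p below 0.05 there were 20 of the 120 in either direction (16.7%), near the 17.8% of all genes tested. The 2 genes were gene22538, with an interaction of -7.72 ± 0.69 on the log2 scale (SE, adjusted p = 0.000492), and the 587-base gene, with -3.36 ± 0.48 (adjusted p = 0.00465). Both entered the set through the magnum at 300 days alone. Their choice required a higher mean in that group, and the test gives no separate support for it. With a block for each replicate number within an age, 4 short genes had a lower change in the uterus, and with a block for the numbers at 120 days alone 6 had a lower and 1 a higher change. Without replicate 1 of the magnum at 120 days, 6 had a lower and 2 a higher change, and 2 had a higher change without replicate 1 or without replicate 3 of the magnum at 300 days. Shares over all genes tested are not given for these refits, so the counts are not read as a trait of the short genes.

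At 120 days no short gene passed the test between the segments. The limma test called 0 of 120 higher and 0 lower in the uterus, where 0.242% and 0.376% of all genes tested were called, and at an unadjusted p below 0.05 there were 24 of the 120 (20.0%), against 9.62% of all genes tested and 11.3% of the longer set. A single short gene was called higher in the uterus without replicate 1, and likewise without replicate 2, of the magnum at 120 days, and 1 when the replicate numbers of that age entered as a block. The short genes nevertheless leaned toward the uterus. Their log2 difference was above 0 for 92 of 120 (76.7%) with a median of 0.28, against 42.0% and a median of -0.06 in the longer set and 49.3% and -0.01 over all genes tested. By library, with each short gene relative to its own mean over the 12 libraries, the medians were -0.07, -0.14 and -0.31 in replicates 1 to 3 of the magnum. In the uterus they were 0.06, 0.285 and 0.03. Short genes deviate together within a library, so the 92 and the 24 do not stand for that many separate differences. On the FPKM scale the lean was much smaller, with a median of 0.04 for the short genes and -0.07 for the longer set.

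With scaled counts, the lean changed gradually with length and was not set by the limit of 600 bases. The median difference was 0.40 for the 18 genes of 300 to 400 bases, 0.27 for the 46 of 400 to 500, and 0.22 for the 56 of 500 to 600. Among longer genes it was 0.18 for 131 genes of 600 to 800 bases, 0.18 for 358 of 800 to 1200, 0.06 for 871 of 1200 to 2000, -0.03 for 2427 of 2000 to 4000 and -0.13 for 4319 above 4000. By level, the lean was found in the lower classes, with medians of 0.36 and 0.39 for short genes at 500 to 1000 and at 1000 to 3000, and 0.01 for those of 3000 and above. The longer set had medians of -0.02, -0.08 and -0.12 in the same classes.

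At 300 days, the uterus exceeded the magnum for 27 short genes and lay below it for 7 (limma, adjusted p below 0.05). The background was 12.9% higher and 11.3% lower among all genes tested, and the shares of the short genes were 22.5% and 5.83%. The longer set had 12.3% and 16.5%. The median log2 difference of the short genes was 0.01, with 61 of 120 (50.8%) above 0. It was -0.10 with 43.1% above 0 in the longer set, and 0.02 with 51.1% over all genes tested. With the FPKM values 22 short genes were higher and 6 lower, where 1709 and 2609 of all 14883 genes tested were. At least 2-fold differences were found for 12 of the 27 and 6 of the 7. Over all 14883 genes tested, 1557 were higher and 1088 lower by at least 2-fold. Among the short genes, the class of 1000 to 3000 held the largest share of calls, with 13 of 33 higher (39.4%) and 2 lower (6.06%). The class of 500 to 1000 had 10 of 45 (22.2%) and 1 (2.22%), and that of 3000 and above 4 of 42 (9.52%) and 4 (9.52%). In the same order, the longer genes of these classes had 11.1% higher and 16.8% lower, 12.5% and 8.31%, and 14.6% and 28.6%. Of the 10, the genes of 345, 380, 414, 476, 489, 490, 528 and 589 bases entered the set through uterus groups alone. Their choice required a higher mean in a uterus group, and their calls give no separate support for it. The highest mean fell in the uterus at 300 days for 35.0% of the short and 24.8% of the longer genes, so the choice enters these shares. Leaving out single libraries gave 18 to 27 higher and 5 to 10 lower, each within 1.5 times the counts given. With the replicate numbers at 120 days as a block, 13 were lower.

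The largest difference toward the uterus was that of a 563-base gene. It stood at 242, 227 and 201 scaled counts in the magnum and at 1705, 1696 and 1751 in the uterus at 300 days, a log2 difference of 2.94 ± 0.35 (SE, limma adjusted p = 0.000182). At 120 days it held 254, 848 and 734 in the magnum and 1588, 1597 and 1462 in the uterus, so the uterus libraries were alike at both ages and the magnum was below them throughout. The magnum values fell by 1.28 ± 0.35 on the log2 scale with age (limma adjusted p = 0.0211). That call was lost without replicate 2 or 3 of the magnum at 120 days (adjusted p = 0.0846 and 0.0960), without replicate 2 or 3 at 300 days (0.0552 and 0.0554) and in a fit of the magnum groups alone (0.0962).

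A 518-base gene held 981, 932 and 478 in the magnum and 2434, 2623 and 2791 in the uterus at 300 days, a log2 difference of 1.78 ± 0.24 (limma adjusted p = 0.000392). At 120 days the same gene held 957, 1190 and 1100 in the magnum and 1437, 1362 and 1564 in the uterus, so the segments did not overlap at either age. The same order was seen for a 377-base gene, with 655, 816 and 509 against 1915, 1945 and 2255 at 300 days and a difference of 1.65 ± 0.19 (limma adjusted p = 0.000161). The 439-base gene described above differed by 1.64 ± 0.20 at 300 days (adjusted p = 0.000254).

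Among the more abundant short genes, a 557-base gene held 1419, 1989 and 985 in the magnum and 3730, 4528 and 4600 in the uterus at 300 days, a difference of 1.60 ± 0.22 (limma adjusted p = 0.000477). A 534-base gene held 3082, 3641 and 2651 in the magnum and 6246, 6855 and 6588 in the uterus, a difference of 1.08 ± 0.17 (adjusted p = 0.000964). Replicate 3 was the lowest magnum library for both. All 27 genes called higher in the uterus at 300 days also had a log2 difference above 0 in the 120-day libraries. So did 92 of all 120 short genes (76.7%), and with FPKM the median lean at 120 days was 0.04. Of the 27, 8 were called higher with age in the uterus and 2 lower with age in the magnum. Over all genes tested, such age calls made up 6.54% and 13.6%. The age calls rest on the same 300-day libraries as the segment difference.

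Of the 7 short genes that were lower in the uterus at 300 days, 5 were the magnum rises of 366, 407, 460, 585 and 587 bases. Both calls rest on the same magnum libraries at 300 days. The 366-, 460-, 585- and 587-base genes also entered the set through that group alone. Their choice required a higher mean there, and the tests give no separate support for it. The difference was -7.65 ± 0.49 on the log2 scale for gene22538 (SE, limma adjusted p = 4.83e-06) and -12.31 ± 1.57 for gene7197 (adjusted p = 0.000292), the latter -11.28 without replicate 1 of the uterus, -11.47 with the FPKM values and -10.51 with a pseudocount of 10. No fold is given for the 460-base gene, which was listed at 0 in the uterus. The others were the 581-base gene, which had fallen in both segments, and a 495-base gene of the highest level class, with 6043, 10375 and 6161 in the magnum and 4232, 4254 and 4550 in the uterus.

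The 42 short genes of 3000 and above were set beside longer genes of that level. In the uterus 32 of the 42 had a log2 age change below 0, with a median of -0.40, where the 1683 longer genes of that level had a median of 0.27 and 67.4% above 0. The limma test called 3 of the 42 lower (7.14%) and 0 higher, against 5.7% and 17.3% of the longer genes of that level. An unadjusted p below 0.05 was found for 13 of the 42 (31.0%), close to the 30.4% of all genes tested, and for 45.2% of those longer genes. In the magnum the median was -0.17, with 15 of 42 above 0, against 0.43 and 69.9% in the longer genes. Here 7 were called higher (16.7%) and 3 lower (7.14%), against 33.7% and 7.49% of the longer genes of that level. The fall in the uterus was not shared by short genes of 1000 to 3000. Their median there was 0.27, with 25 of 33 above 0, 6 called higher (18.2%) and 3 lower (9.09%). Longer genes of 1000 to 3000 had a median of 0.13, with 9.75% higher and 6.04% lower. At 500 to 1000 the uterus medians were -0.06 for short and 0.0036 for longer genes. The levels of 42 genes in 1 library are not independent, and the following values are descriptions of libraries.

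The difference between the median of the short and of the longer genes of 3000 and above was taken in each library, each gene relative to its own mean over the 12 libraries. A factor applied to a whole library cancels in this difference. In the magnum it was 0.43, 0.25 and 0.10 on the log2 scale in replicates 1 to 3 at 120 days and -0.33, -0.06 and -0.67 at 300 days. In the uterus it was 0.20, 0.61 and 0.34 at 120 days and -0.24, -0.22 and -0.22 at 300 days. In each segment all 3 libraries at 120 days lay above the 3 at 300 days. The uterus libraries at 300 days were the closest to each other. In the magnum the medians of the short genes themselves overlapped between the ages, at 0.45, 0.02 and -0.06, then -0.07, 0.32 and -0.45. Those of the longer genes rose there, from 0.03, -0.23 and -0.16 to 0.25, 0.38 and 0.22. In the uterus the medians of each set did not overlap. Both sets were chosen by highest group mean, so the choice enters this contrast. That mean fell in the magnum at 300 days for 42.9% of the longer set and 20.0% of the short genes. For short genes at 1000 to 3000 the difference separated the segments and not the ages, with -0.22, -0.24 and -0.33 and then -0.28, -0.11 and -0.34 in the magnum, and 0.18, 0.39 and 0.06 and then 0.33, 0.32 and 0.26 in the uterus. At 500 to 1000 the segments overlapped, with -0.16, -0.21 and -0.42, then -0.21, -0.0015 and 0.05 in the magnum and 0.12, 0.25 and -0.18, then 0.15, 0.21 and 0.09 in the uterus. For the classes under 3000 this difference was not taken with FPKM values. With those, the lean of all short genes toward the uterus at 120 days was 0.04 instead of 0.28.

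**Figure D4:**
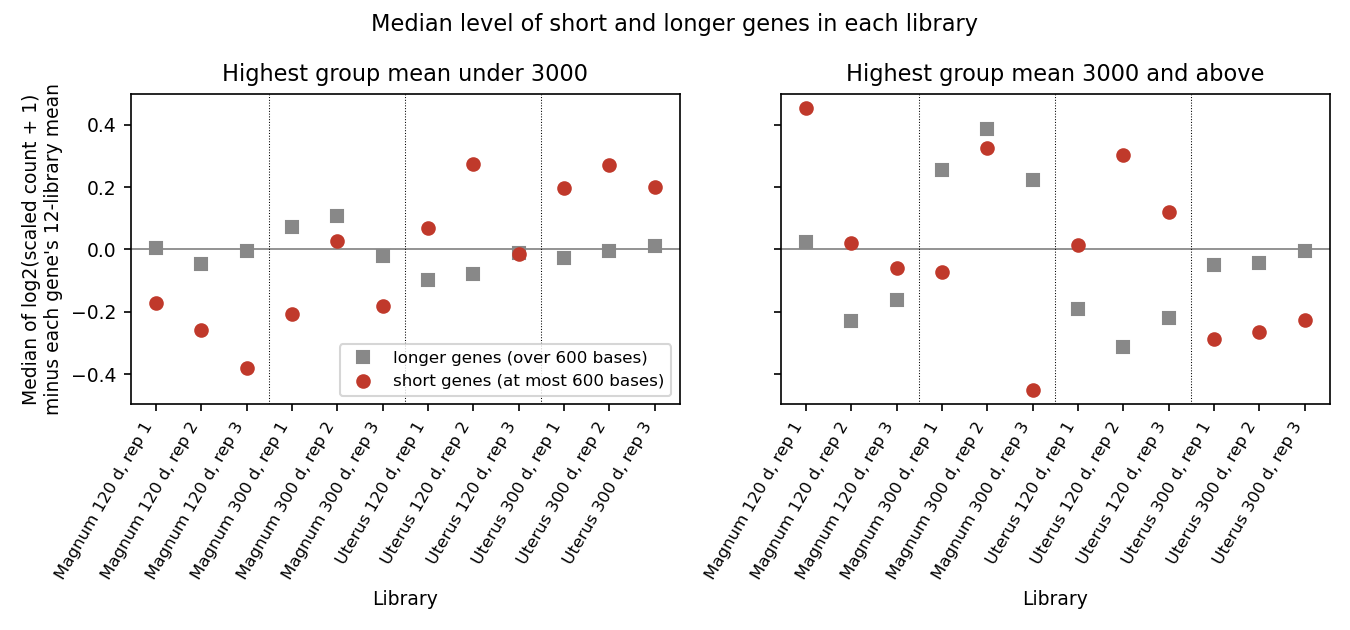
Median of log2(scaled count + 1) minus each gene's 12-library mean, by library, for short (red circles) and longer (grey squares) genes, with genes of a highest group mean under 3000 on the left and of 3000 and above on the right. On the right the short genes lie above the longer ones in all 6 libraries at 120 days and below them in all 6 at 300 days.

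The abundant short genes also moved as a block between replicates of a group. In the magnum at 300 days, 38 of the 42 were above their group mean in replicate 2 and 6 of 42 in replicate 3, with median deviations of 0.45 and -0.38 on the log2 scale, where the longer genes of that level deviated by 0.08 and -0.08. In the magnum at 120 days 36 of 42 were above the mean in replicate 1 and 4 of 42 in replicate 3. The median deviations there were 0.31 and -0.21. The longer genes of that level deviated in the same directions, by 0.13 and -0.03. In the uterus 37 of 42 were above it in replicate 2 at 120 days, while at 300 days the medians stayed between -0.04 and 0.04. The median replicate SD of these 42 genes was 0.45 in the older magnum and 0.07 in the older uterus, against 0.32 and 0.15 in the longer genes of that level. Because short genes share such library deviations, the counts of calls above do not stand for that many separate changes.

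A further library pattern followed the identifier number. Of the short genes 22 (18.3%) had a number above 25000, against 85 (1.05%) of the longer set, a border chosen after the values were seen. These 22 had a median deviation of 0.36 in replicate 3 of the magnum at 300 days and 0.47 in replicate 2 of the uterus at 120 days, where the other 98 short genes had -0.33 and 0.15. The 85 longer genes deviated by 0.62 and 0.47 in the same libraries and the other longer genes by -0.08 and -0.01. The deviation was thus shared by short and longer genes with such numbers, and the files do not say what the numbering stands for.

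The second deposited table gives FPKM, fragments scaled to gene length and library, and for short genes it did not follow the scaled counts. With the ratio of FPKM to scaled count per base set at 1 for genes above 2000 bases, the median ratio over the 113 to 119 short genes with at least 100 scaled counts in a library was 1.60 to 2.65 by library. It was highest in the shortest class, at 2.53 to 4.78 by library for genes of 300 to 400 bases, and fell to 1.79 to 2.93 at 400 to 500 and 1.43 to 2.30 at 500 to 600. For genes of 2000 to 4000 bases it was 0.974 to 1.01. Put as a length, the FPKM values of short genes were those of genes 185 to 302 bases shorter than listed, depending on the library.

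This shortfall differed between libraries of 1 group. In the uterus at 120 days it was 222, 201 and 302 bases in replicates 1 to 3, in the magnum at 120 days 274, 245 and 295, in the magnum at 300 days 233, 254 and 185, and in the uterus at 300 days 245, 268 and 277. The shortest gene of the set, at 320 bases, is an example. In the uterus at 120 days it held 1376, 2212 and 1002 scaled counts in replicates 1 to 3 but 573, 774 and 881 FPKM. Replicate 3 was thus the lowest library by scaled count and the highest by FPKM.

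**Figure D5:**
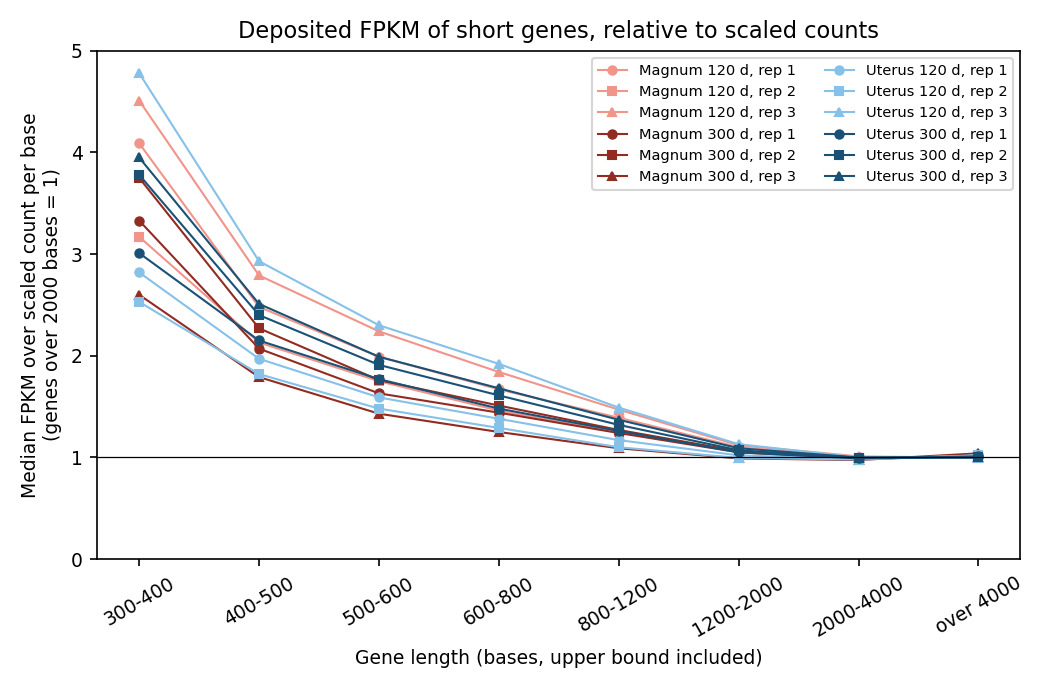
Median ratio of FPKM to scaled count per base (vertical, genes above 2000 bases set at 1) by gene length class (horizontal, bases), with 1 line per library. The lines fan out below 1200 bases and reach 2.53 to 4.78 in genes of 300 to 400 bases.

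The part of this library-specific shortfall in the lean toward the uterus at 120 days, which was a median of 0.28 with scaled counts and 0.04 with FPKM, was not tested. The magnum age median of the short genes was -0.19 with FPKM instead of 0.02, with 11 called higher and 7 lower. Over all 14883 genes tested, 2525 were called higher and 1743 lower with FPKM, both larger shares than those of the short genes. The age order of the abundant short genes relative to longer genes of that level was the same on both scales. With FPKM their difference from longer genes was 0.52, 0.15 and 0.34 at 120 days and -0.33, 0.07 and -0.93 at 300 days in the magnum, and 0.03, 0.29 and 0.65, then -0.28, -0.12 and -0.10 in the uterus. Of the 26 short genes called with age in the magnum by scaled counts, 18 were called in the same direction with FPKM, as were 7 of 17 in the uterus and 26 of 34 between the segments at 300 days. These are 69.2%, 41.2% and 76.5%, against 82.1%, 81.7% and 85.4% of the calls over all genes tested.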

How the data were processed

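RNA was extracted with the RNAsimple Total RNA Kit and sequenced after Smarter mRNA-seq library preparation, per the labels' protocols. The submitters' processing notes name Cufflinks 2.0.2, FastQC 0.11.6, GATK 3.8, TopHat2 2.0.8 and Trimmomatic 0.32 without roles. The genome build, the annotation and the counter were not given in the sources used here. Genes that overlap or have near-identical copies therefore could not be judged. The deposited whole-number table was treated as a score, scaled counts rather than raw counts, since size factors (median of ratios) lay between 0.974 and 1.01 while totals differed several-fold. The deposited FPKM table was the alternative. No 2 columns were identical, and no per-sample column was left unmapped.

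All 12 libraries entered 1 limma fit (limma 3.58.1, R 4.3.3, mean-dependent prior) on log2(scaled count + 1), with a coefficient per group, for the 14883 genes with at least 10 in at least 3 libraries. P-values were two-sided and Benjamini-Hochberg adjusted over all genes tested. Alternatives were FPKM, other scalings, a pseudocount of 10, other filters, the compared groups alone, blocks, single libraries left out and other length or level limits. A count model, made for raw counts, was not used. The test was also run on simulated data in which genes varied independently. That run therefore cannot speak to calls among genes that deviate together within a library. Summaries used Python 3.11.15, NumPy 2.4.6 and pandas 2.3.3.

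Magnum and uterus libraries sharing a number deviated together at 120 days (correlation over genes 0.36, 0.59 and 0.39) and less at 300 days (0.20, 0.22 and 0.08), and ages did not pair (-0.17 to -0.01). Libraries of the 2 segments with different numbers correlated at -0.40 to 0.04 at 120 days and at -0.18 to -0.02 at 300 days. Deviations were taken from the group mean and cancel within a group, so positive same-number values force negative ones on average among the other pairs. The latter are therefore not separate support. By the same-number values, numbers pair libraries at 120 days and more weakly at 300 days, though no label says so. The test given throughout has no block, and a fit with the numbers as a block at 120 days, chosen after the values were seen, is given where it moved a count.

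The members and tests were chosen with earlier results of these data known. By rule, the most abundant rise and fall in each segment was named among members that were called, changed at least 2-fold and had non-overlapping libraries, taking the next where a member was already named. No uterus rise met it. Other genes are given by length and were picked after their values were seen.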

Additional observations from a re-analysis of the deposited data

Results flagged for a closer look

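For 2 short genes the age change differed between the segments by the interaction test. For gene22538 the uterus change was lower than that of the magnum by an interaction of -7.72 on the log2 scale (limma adjusted p = 0.000492). For the 587-base gene it was -3.36 (limma adjusted p = 0.00465). Both stayed called, in the same direction, under all 23 alternatives, but scaling to library totals, which moved the median of all genes by 1.58, gave -6.11 and -1.75. Both genes entered the set through the magnum at 300 days alone. Their choice therefore required a higher mean in that group, and the test gives no separate support for it.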

How the results depend on the processing

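Of 266 recomputed counts, 204 stayed within 1.5 times, and where a count moved the cause was not tested except as stated. FPKM values gave 11 rises in the magnum and 2 in the uterus, where 2525 and 1004 of all 14883 genes tested rose. Dividing by library totals gave 0 rises in the uterus, where it moved the median age change of all genes by -0.17. In the magnum it gave 5 rises and 110 falls. It gave 112 higher in the uterus at 300 days, and 91 higher and 4 lower age changes in the uterus. Apart from the uterus rises, these counts follow by construction, since it moved the median of all genes by -1.76 in the magnum. The 375-base gene then changed by -0.42. Upper quartile rescaling, which moved that median by -0.17, gave 11 rises and 14 falls in the magnum and 3 higher age changes. Fitting the compared groups alone gave 10 magnum rises. A pseudocount of 10 gave 4 lower age changes.

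With a block for each number within an age, 4 lower age changes were called, while a block for the numbers at 120 days alone gave 1 gene higher in the uterus at 120 days, 13 lower at 300 days, and 1 higher and 6 lower age changes. The replicate block over all libraries moved no count by more than 1.5 times. Without both 120-day libraries numbered 1, the uterus had 14 falls, and 1 higher and 5 lower age changes were called.

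A limit of 500 bases (64 genes) gave 9 rises and 4 falls in the magnum, 5 falls in the uterus, 17 higher and 4 lower in the uterus at 300 days, and 0 lower age changes. A limit of 800 bases (251 genes) gave 41 and 18 in the magnum, 22 and 20 in the uterus, 2 and 2 between segments at 120 days, 51 and 20 at 300 days, and 2 higher and 4 lower age changes. A minimum mean of 1000 (75 genes) gave 17 higher in the uterus at 300 days. These differ because the sets differ.

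Leaving out single libraries gave 9 to 18 rises and 5 to 10 falls in the magnum, 0 to 11 and 5 to 14 in the uterus, 0 to 1 higher and 0 lower at 120 days, 18 to 27 and 5 to 10 at 300 days, and 0 to 2 higher and 2 to 6 lower age changes. Depth is unknown, so counting error could not be set beside these values. Shares over all genes tested are not given for the fits without a library, so these counts are not read as particular to the short genes.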
